A study of Mus musculus and Homo sapiens with 14 samples.

Results

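The cytokine receptor chains of T cells described here are 10 mouse genes: Il7r, Il2ra, Il2rb, Il2rg, Il4ra, Il21r, Il6ra, Il18r1, Il18rap and Il1rl1. They were chosen by gene symbol, with earlier results of the same libraries known and with no limit on a measured level. All 10 had a row among the 50559 entries of the EL4 tumour table and among the 55969 entries of the EG7-OVA table, and all 10 passed the filter on low counts in both. Total RNA was sequenced from P3 tumours (2 libraries) and P0 tumours (2 libraries) grown by EL4, a T-cell lymphoma line of the mouse. The labels do not expand P0 and P3, do not say how many tumours or mice each library stands for, and give the genotype of every group as WT. Cultured EG7-OVA cells, an EL4 derivative that carries an ovalbumin gene, received azacytidine at 1.5 µM (2 libraries), decitabine at 0.2 µM (2 libraries) or the solvent DMSO (2 libraries). Each agent was added at 0, 24 and 48 h, and RNA was taken at 72 h. Azacytidine and decitabine are nucleoside analogues that trap DNA methyltransferases and so lower DNA methylation in dividing cells.

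Library totals were 21621580 to 25328708 counts in the tumours and 15690747 to 21048979 in the cultures. The labels do not say whether libraries of a group came from separate tumours or cultures, so p-values measure the spread between these libraries, which may be technical. The T-cell gene Cd3e was read in all 10 libraries, at 172.5 and 205.8 CPM (reads scaled to the library's effective total) in P3 tumours and 207.0 and 185.6 CPM in P0 tumours. In the cultures Cd3e stood at 202.2 and 198.9 CPM with azacytidine, 226.4 and 221.1 CPM with decitabine, and 166.8 and 150.3 CPM with DMSO. The T-cell receptor constant genes Trac, Trbc1 and Trbc2 were listed at 0 in the tumour table but had reads in the EG7-OVA table.

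Cytokine receptors of this kind have no catalytic activity that starts the signal; they bring together partner proteins once a ligand holds the chains side by side. The common gamma chain, encoded by Il2rg, pairs with the interleukin-7, interleukin-4 and interleukin-21 receptor chains, and with Il2rb it forms a receptor for interleukin-2 and interleukin-15. The product of Il2ra raises the affinity of that receptor for interleukin-2. Chains of this class use Janus kinases and STAT factors, whereas Il18r1, Il18rap and Il1rl1 belong to the interleukin-1 receptor family and signal through Myd88 and the IRAK kinases. Il6ra binds interleukin-6 and signals through the shared chain Il6st.

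Several of the genes are neighbours. On mm10, Il1rl1 (chromosome 1, 40429570 to 40465415), Il18r1 (40465552 to 40500854) and Il18rap (40515362 to 40551705) lie on the plus strand in a row. The gap between Il1rl1 and Il18r1 is 136 bases and that between Il18r1 and Il18rap is 14.5 kb, with no coding gene between them. Il4ra (chromosome 7, 125552120 to 125579474) and Il21r (125603429 to 125633570), also both on the plus strand, are 24.0 kb apart with no coding gene between them. Il7r (chromosome 15, 9505788 to 9530176) and Il2rb (chromosome 15, 78479256 to 78495271) are on the minus strand, as are Il6ra (chromosome 3, 89864059 to 89913196) and Il2rg (chromosome X, 101264378 to 101268255). Il2ra is on the plus strand of chromosome 2, from 11642807 to 11693193.

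Promoter windows of 250 bases before the RefSeq start were found for 9 of the 10 genes in the RefSeq table (GRCm38.p6); the name left is Il2rb. The 3 shown belong to the genes that passed the test in the same direction with both drugs, Il7r (chr15:9529877-9530126, minus strand), Il4ra (chr7:125552021-125552119, plus strand) and Il6ra (chr3:89913197-89913446, minus strand). Capitals mark CG dinucleotides, the bases at which mammalian DNA is mostly methylated, and each sequence reads 5′ to 3′ along the gene's strand. RefSeq and GENCODE starts differ for Il7r and Il4ra. The RefSeq start of Il7r lies 300 bases inside the GENCODE gene, so its whole window falls within the gene span given above, and that of Il4ra lies 151 bases inside. For Il4ra the 99 bases before the GENCODE start are shown.
Il7r: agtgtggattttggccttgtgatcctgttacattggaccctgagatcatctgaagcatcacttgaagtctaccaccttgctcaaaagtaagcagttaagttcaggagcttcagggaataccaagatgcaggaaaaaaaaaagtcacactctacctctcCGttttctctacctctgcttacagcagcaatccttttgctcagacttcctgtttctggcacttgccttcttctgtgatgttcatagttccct
Il4ra: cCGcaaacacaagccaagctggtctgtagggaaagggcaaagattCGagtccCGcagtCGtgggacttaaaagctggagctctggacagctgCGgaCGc
Il6ra: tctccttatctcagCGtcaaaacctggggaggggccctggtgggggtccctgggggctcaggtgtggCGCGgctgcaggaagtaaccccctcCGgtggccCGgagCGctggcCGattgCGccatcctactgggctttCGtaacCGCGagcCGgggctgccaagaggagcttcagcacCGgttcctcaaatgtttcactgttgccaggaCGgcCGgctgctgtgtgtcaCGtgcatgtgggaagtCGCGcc
The Il7r window held 1 CG, while the full windows of Il4ra and Il6ra held 17 and 18, of which the stretch shown for Il4ra holds 6. Over all 32851 windows of the table the median was 6, with quartiles of 2 and 16. Windows of the other members held 3 CG in Il2ra, 3 in Il2rg, 4 in Il18rap and 4 in Il21r. Il18r1 had 3 windows with 3, 7 and 6, and Il1rl1 had 2 windows with 0 and 3. The letters TTCNNNGAA, a pattern that STAT factors bind and that reads the same on both strands, occurred in the Il7r window and in the third Il18r1 window, 2 of 12 member windows, against 7.02% of all windows. DNA methylation was not measured in these files, and a match is a description of the letters.

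Levels were compared between genes as CPM per kilobase of annotated exon. Il2rg was first in all 5 groups, with a mean of 73.2 CPM per kb in P3 tumours and 58.2 in P0 tumours, and 48.5 with azacytidine, 65.9 with decitabine and 42.7 with DMSO. In P3 tumours Il7r followed at 13.5 CPM per kb, then Il21r at 4.97, Il4ra at 4.83 and Il6ra at 3.13, and the last 3 overlapped between their libraries. Il18rap (0.994), Il2rb (0.945) and Il2ra (0.616 CPM per kb) also overlapped. Il18r1 (0.316) and Il1rl1 (0.0544) had the lowest means, although both Il18r1 libraries lay between those of Il2ra. In P0 tumours Il2rb was second at 21.6 CPM per kb, above Il21r (16.1), Il7r (15.8) and Il4ra (14.4), whose libraries overlapped. Il6ra (3.27), Il2ra (2.38), Il18r1 (1.48), Il18rap (0.894) and Il1rl1 (0.464 CPM per kb) followed without overlap. Both tumour groups thus placed Il1rl1 last, and Il2rb was second in P0 and seventh in P3 by mean level.

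The design compares P3 with P0 tumours. Of the 10 receptor genes 1 was higher and 6 were lower in P3 tumours, and 3 did not pass, by edgeR's quasi-likelihood test at an adjusted p of 0.05 over all 19993 genes. Over all genes tested, 18.8% were higher and 19.9% lower. The median log2 fold change was -1.63 over the 10 genes and -0.002 over all genes. The genes were chosen with such results known, so these counts and the adjusted p-values below describe the libraries and support nothing about the family.

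The beta chain of the interleukin-2 and interleukin-15 receptor fell furthest of the 10. Il2rb was read at 3.18 and 4.92 CPM in P3 tumours (72 and 112 reads), against 91.0 and 94.3 CPM in P0 tumours (1923 and 2370 reads). The groups lay far apart, and the log2 fold change was -4.51 ± 0.21 (SE, n = 2 each, adjusted p 0.000536), a 22.9-fold difference in size. Il2ra, the alpha chain, was read at 1.59 and 5.44 CPM in P3 tumours and at 14.4 and 12.8 CPM in P0 tumours. Both P3 libraries were lower although they differed from each other, with a log2 fold change of -1.95 ± 0.53 (SE, adjusted p 0.0364). Il2rg, the gamma chain of the same receptor, was the 1 gene that rose. It stood at 163.5 and 186.0 CPM in P3 tumours and 141.6 and 136.2 CPM in P0 tumours, without overlap, and its log2 fold change was 0.33 ± 0.10 (SE, adjusted p 0.0482). That adjusted p ranged from 0.00116 to 0.271 over 9 other settings and the call was lost in 6 of them. Il2rg shares 728 exon bases, 30.5% of its exon length, with the gene model Gm20489 on the same strand, which has no row in either table; how reads there were assigned is not given in the sources used here.

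Among the other partners of the gamma chain, Il4ra and Il21r fell and Il7r did not pass. Il4ra, the interleukin-4 binding chain, was read at 35.5 and 22.5 CPM in P3 tumours and 75.03 and 97.4 CPM in P0 tumours. Its groups did not overlap, and its log2 fold change was -1.57 ± 0.25 (SE, adjusted p 0.0075). Il21r, its neighbour on chromosome 7 and the interleukin-21 binding chain, was read at 21.4 and 11.6 CPM in P3 tumours and at 49.2 and 57.6 CPM in P0 tumours. Both P3 libraries were again lower, with a log2 fold change of -1.69 ± 0.29 (SE, adjusted p 0.00979). Il7r, which T cells use for survival signals from interleukin-7, had 86.4 and 39.8 CPM in P3 tumours on either side of 73.8 and 73.4 CPM in P0 tumours. Its log2 fold change of -0.22 had a 95% interval of -1.07 to 0.63 (adjusted p 0.626), and without P3 library 1 it was -0.88 with an adjusted p of 2.09e-06. Its adjusted p over the 9 settings ran up to 0.802.

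Il6ra, the interleukin-6 binding chain, stood at 20.4 and 33.7 CPM in P3 tumours and 27.1 and 29.4 CPM in P0 tumours. The P0 libraries lay between the P3 libraries, and the 95% interval of the log2 fold change was -0.67 to 0.54 (adjusted p 0.856). Without P3 library 2 it was -0.47 with an adjusted p of 0.0115, within a range of 0.0115 to 0.987 over the settings.

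Of the 3 neighbouring genes of the interleukin-1 receptor family on chromosome 1, Il18r1 and Il1rl1 fell and Il18rap did not pass. Il18r1, the ligand-binding chain for interleukin-18, was read at 1.59 and 1.45 CPM in P3 tumours, against 7.24 and 7.04 CPM in P0 tumours. The libraries within each group were close, and its log2 fold change was -2.23 ± 0.24 (SE, adjusted p 0.00298). Il1rl1, the interleukin-33 receptor ST2, was read at 0.531 and 0.219 CPM in P3 tumours (12 and 5 reads) and at 2.70 and 3.70 CPM in P0 tumours (57 and 93 reads). Its groups did not overlap, with a log2 fold change of -3.08 ± 0.48 (SE, adjusted p 0.00763), and counts this low give it the widest interval but for Il2ra, -4.28 to -1.88. Il18rap, the accessory chain of the interleukin-18 receptor, was read at 5.53 and 7.90 CPM in P3 tumours and 4.36 and 7.72 CPM in P0 tumours. These overlapped, and the 95% interval of its log2 fold change, -0.72 to 1.01 (adjusted p 0.75), lay above that of Il18r1, -2.82 to -1.63.

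**Figure D1:**
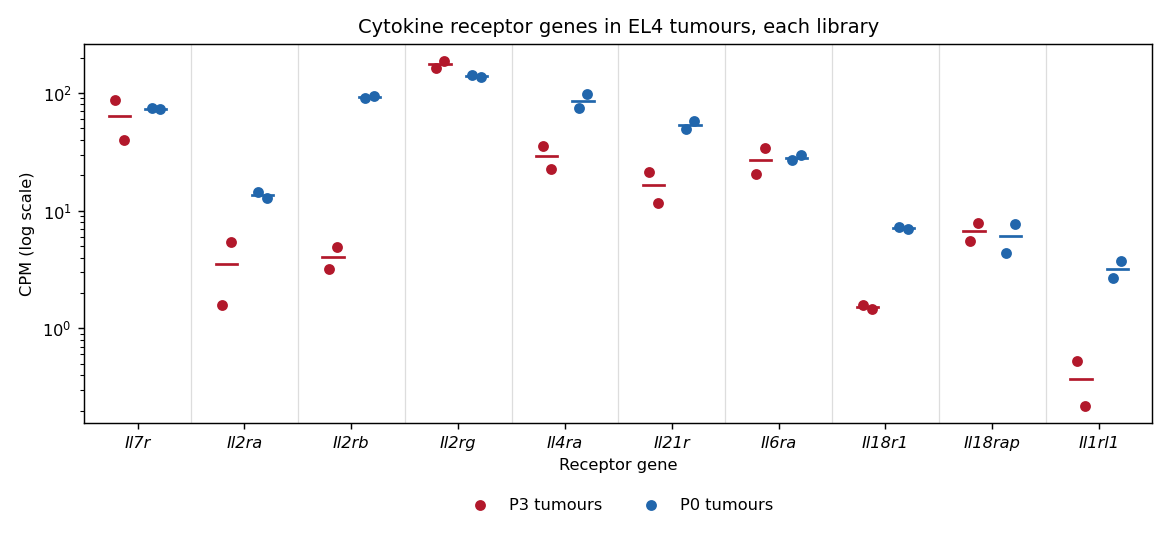
Level of each receptor gene in every EL4 tumour library, in CPM on a log axis; points are libraries (2 per group), short bars are group means, P3 in red and P0 in blue. Il2rb shows the widest gap (3.18 and 4.92 CPM in P3 tumours, 91.0 and 94.3 CPM in P0 tumours), while Il7r, Il6ra and Il18rap overlap between the groups.

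The tumour calls rest on both P0 libraries. Without P0 library 1 only Il2rb of the 10 kept its call, with 366 genes called in all, and without P0 library 2 none of the 10 and no gene at all passed in edgeR (5750 genes had an unadjusted p under 0.05; DESeq2 was not run without that library). Marker lists of other cells or T-cell states moved with the groups as well, where 18.8% of all genes were higher and 19.9% lower. All 8 tested genes of 9 NK and cytotoxic markers were lower in P3 tumours, and their summed level was 26.5 to 36.3 CPM in P3 tumours and 156.6 to 169.4 CPM in P0 tumours. The 14 macrophage markers, of which 11 were lower and 1 higher, summed to 424.9 to 425.7 CPM in P3 tumours and 1411 to 1758 CPM in P0 tumours. Of 9 dendritic cell markers 7 were lower, with sums of 47.0 to 48.2 CPM in P3 tumours and 177.7 to 203.1 CPM in P0 tumours. All 7 tested of 9 B-cell markers were lower, with sums of 28.4 to 28.6 CPM in P3 tumours and 190.9 to 366.8 CPM in P0 tumours; Ighm and Igkc were listed at 0 in all 4 libraries. Of 6 regulatory T-cell markers 4 were lower, with sums of 286.3 to 322.0 CPM in P3 tumours and 661.6 to 677.6 CPM in P0 tumours. The same list summed to 645.1 to 737.8 CPM in EG7-OVA cells with DMSO, a table normalized separately, but its make-up differed. Its gene Ikzf2 averaged 243.3 ± 6.2 CPM in P3 tumours and 434.9 ± 10.6 CPM in P0 tumours (SD, n = 2 each). With DMSO Ikzf2 averaged 678.9 ± 61.4 CPM. Gpr83 of the list averaged 23.4 ± 12.7 CPM in P3 tumours, 170.7 ± 2.0 CPM in P0 tumours and 4.17 ± 2.3 CPM with DMSO. Several of these non-tumour cell types use the receptor genes that fell, and their part in the result was not tested. In bulk tissue, fewer cells of a type and less RNA per cell cannot be told apart.

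Sums of other lists moved less or the other way. The T-cell markers summed to 2487 to 2734 CPM in P3 tumours and 2688 to 2978 CPM in P0 tumours, with 2 of 13 tested genes higher and 4 lower. Among the lower, Cd8a averaged 0.132 CPM in P3 tumours and 18.6 CPM in P0 tumours. Cd8b1, also lower, averaged 0.0221 CPM in P3 tumours and 8.13 CPM in P0 tumours, which the sum does not show. Of 8 tested neutrophil markers 4 were higher, with sums of 20.4 to 71.2 CPM in P3 tumours and 9.61 to 12.1 CPM in P0 tumours. The mast cell and basophil list summed to 156.5 to 207.2 CPM in P3 tumours and 32.8 to 36.1 CPM in P0 tumours. Most of that sum was Cpa3, at 198.8 and 152.1 CPM in P3 tumours and 24.0 and 20.97 CPM in P0 tumours. Of 5 tested genes of the list Cpa3 alone passed, and the median log2 fold change was -0.75. Kit, Mcpt4, Cma1 and Tpsb2 had negative log2 fold changes and did not pass. Fibroblast markers summed to 2543 to 2890 CPM in P3 tumours and 3867 to 3923 CPM in P0 tumours, but went both ways. Of 9 tested genes 2 were higher, Pdgfrb and Thbs2, and 3 were lower, Col1a1, Col1a2 and Fbln1. Endothelial markers summed to 152.9 to 218.8 CPM in P3 tumours and 234.0 to 235.5 CPM in P0 tumours, with 1 of 7 tested genes lower.

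**Figure D2:**
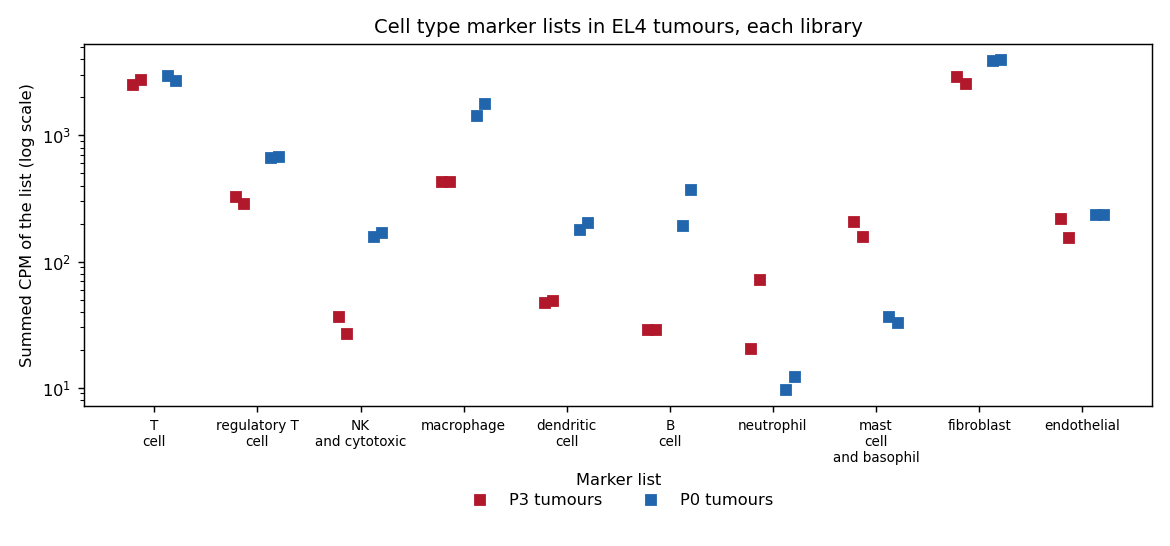
Summed CPM of 10 cell type marker lists in each EL4 tumour library, on a log axis, with P3 in red and P0 in blue (2 libraries each). NK and cytotoxic, macrophage, dendritic and B-cell sums are lower in both P3 libraries. The mast cell and basophil sum is higher, and most of it is Cpa3. The T-cell sums overlap, although Cd8a and Cd8b1 of that list are lower in P3 tumours.

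The rest of the pathway was followed with lists chosen by role, where 18.8% of all genes tested were higher and 19.9% lower. Of 25 other interleukin receptor chains 4 were higher and 10 lower in P3 tumours. Il12rb1, a chain of the interleukin-12 and interleukin-23 receptors, averaged 102.3 ± 0.03 CPM in P3 tumours and 31.4 ± 5.1 CPM in P0 tumours (SD, n = 2 each; log2 fold change 1.70). Il10ra, which binds interleukin-10, averaged 6.48 ± 0.28 CPM in P3 tumours and 37.5 ± 10.9 CPM in P0 tumours, and Il1r1, the interleukin-1 receptor, fell by 1.06 on the log2 scale. Only 7 of 14 ligand genes had enough reads to test, and 2 were lower: Il33, the ligand of Il1rl1 (log2 fold change -2.31), and Tslp, which signals through Il7r paired with Crlf2 (log2 fold change -3.49). Il2, Il4, Il7 and Il21 were among those not tested.

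Of 19 signal transducers 4 were higher and 4 lower in P3 tumours. Of 14 cytokine response genes 3 were higher and 4 lower. Over all genes tested 18.8% were higher and 19.9% lower, so these counts describe the lists and show no pathway-wide change. Cish, a feedback inhibitor induced by STAT5, averaged 0.529 ± 0.13 CPM in P3 tumours and 5.83 ± 0.88 CPM in P0 tumours (SD, n = 2 each; log2 fold change -3.45), and the kinase gene Pim2 fell by 1.28 on the log2 scale. Of 10 genes for regulators of receptor genes 1 was higher, Rora (log2 fold change 1.84), and 4 were lower, including Ets1 (-0.98) and Foxp3 (-1.74). Neither of the receptor-shedding proteases Adam10 and Adam17 passed. Each of the calls named here is among those lost without P0 library 2.

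In EG7-OVA cells the design compares each drug with DMSO. Both comparisons use the same 2 DMSO libraries, so they are set side by side without a measure of likeness between them. With azacytidine 2 of the 10 receptor genes were higher, 3 were lower and 5 did not pass, where 13.6% of the 19123 genes tested were higher and 6.7% lower. With decitabine 6 were higher, 1 was lower and 3 did not pass, where 12.4% of all genes were higher and 4.3% lower. The median log2 fold change over the 10 genes was 0.20 with azacytidine, against 0.033 over all genes, and 1.04 with decitabine, against 0.036 over all genes. As in the tumours, these values describe a list chosen with results known.

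Il7r was the receptor gene with the largest loss. It was read at 8.95 and 5.90 CPM with azacytidine and at 24.2 and 7.71 CPM with decitabine, against 65.7 and 129.1 CPM with DMSO. All 4 drug libraries lay below both DMSO libraries, although the DMSO libraries themselves and the decitabine libraries differed widely. The log2 fold change was -3.72 ± 0.52 with azacytidine (SE, n = 2 each, adjusted p 0.000979) and -2.61 ± 0.48 with decitabine (adjusted p 0.00541). Per kilobase, Il7r was second after Il2rg with DMSO at 20.9 CPM per kb, and stood at 1.59 with azacytidine and 3.42 with decitabine, with libraries that overlapped those of Il2rb in both drug groups. Both calls held in all 12 other settings, with adjusted p up to 0.0247 and 0.0237.

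Il4ra and Il6ra rose with both drugs. Il4ra was read at 88.3 and 61.5 CPM with azacytidine and 68.1 and 79.8 CPM with decitabine, against 33.8 and 25.6 CPM with DMSO. Its log2 fold change was 1.33 ± 0.22 with azacytidine (SE, adjusted p 0.00278) and 1.32 ± 0.22 with decitabine (adjusted p 0.00348). Il6ra was read at 41.0 and 30.0 CPM with azacytidine, 33.5 and 42.0 CPM with decitabine, and 8.39 and 13.7 CPM with DMSO. Its log2 fold change was 1.68 ± 0.28 with azacytidine (SE, adjusted p 0.00245) and 1.78 ± 0.28 with decitabine (adjusted p 0.00219). Neither gene overlapped with DMSO in any drug library, and all 4 calls held in the 12 other settings, with adjusted p up to 0.039. Their RefSeq windows are the ones with 17 and 18 CG. Il2ra and Il2rg, each with 3 CG, and Il1rl1, with 0 and 3 CG in its windows, were also higher with decitabine. A link between CG number and response was not tested. Antisense gene models share 571 exon bases with Il4ra (Gm44876) and 242 with Il6ra (Gm42809), and strand handling in the counting is not given in the sources used here.

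The chains of the interleukin-2 receptor rose with decitabine, with more doubt than Il4ra and Il6ra. Il2rb was read at 9.34 and 4.17 CPM with azacytidine and 13.7 and 10.4 CPM with decitabine, against 0.905 and 3.79 CPM with DMSO. Its log2 fold change was 1.52 ± 0.59 with azacytidine (adjusted p 0.101, range 0.0018 to 0.531 over 12 settings) and 2.36 ± 0.60 with decitabine (adjusted p 0.0238, range 1.77e-07 to 0.0976). The decitabine call was lost without either decitabine library and without DMSO library 1. The azacytidine difference passed with no filter on low counts (0.0018) and without DMSO library 2 (0.00627).

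Il2ra was low in most cultures, at 0.849 and 0.954 CPM with azacytidine, 6.93 and 2.40 CPM with decitabine, and 1.16 and 0.997 CPM with DMSO. The decitabine libraries were above all others, with a log2 fold change of 2.11 ± 0.53 (SE, adjusted p 0.0218), and the call was lost without decitabine library 1, the higher of the pair (0.221, range 0.000455 to 0.221), and without either DMSO library. With azacytidine the 95% interval was -1.49 to 0.99 (adjusted p 0.797). Il2rg was read at 120.1 and 111.2 CPM with azacytidine, 176.7 and 138.0 CPM with decitabine, and 103.9 and 99.8 CPM with DMSO. It rose by a log2 fold change of 0.63 ± 0.17 with decitabine (SE, adjusted p 0.0326, range 0.00991 to 0.17), a call lost in 6 of 12 settings: without either azacytidine library, decitabine library 1 or either DMSO library, and in a fit of the 4 libraries compared. With azacytidine the 95% interval was -0.20 to 0.57. The labels' growth text names EG7-OVA in 2 sentences, 1 of which adds interleukin-2 at 100 IU/mL, so which cultures held that ligand is not known.

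Il21r did not pass with either drug. It was read at 46.5 and 29.5 CPM with azacytidine, 47.3 and 40.4 CPM with decitabine, and 36.8 and 19.8 CPM with DMSO. The azacytidine and DMSO libraries overlapped, whereas the decitabine libraries were above both DMSO libraries. The 95% interval of the log2 fold change was -0.25 to 1.10 with azacytidine (adjusted p 0.368) and -0.04 to 1.31 with decitabine (adjusted p 0.195, range 0.0392 to 0.674). It passed with decitabine when no filter on low counts was used (0.0392) and without DMSO library 1 (0.0416).

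**Figure D3:**
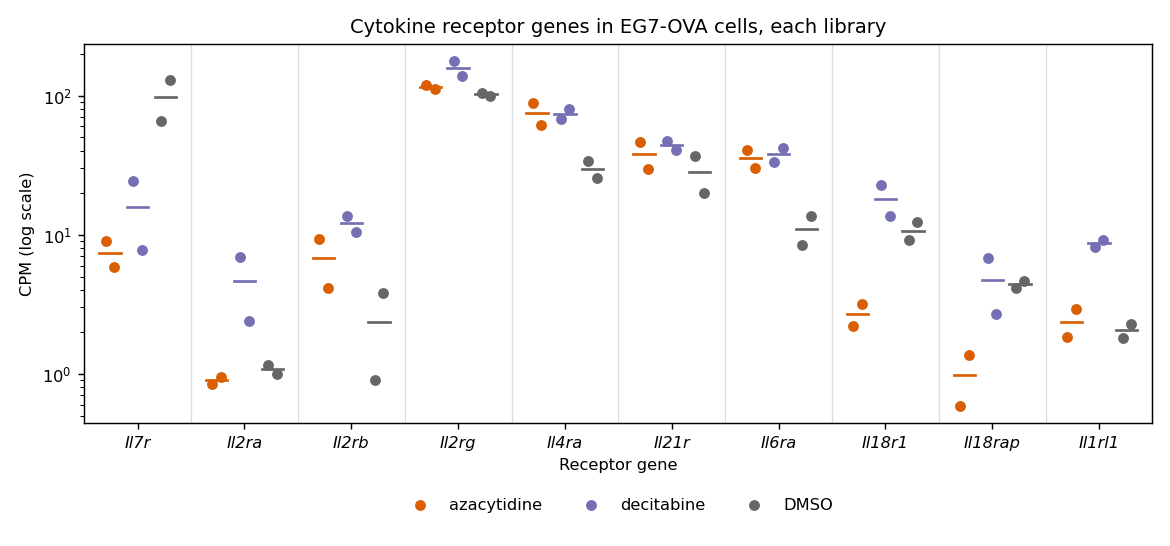
Level of each receptor gene in every EG7-OVA library, in CPM on a log axis; points are libraries (2 per group) and short bars are group means, with azacytidine in orange, decitabine in violet and DMSO in grey. Il7r is lowest in the drug libraries, Il4ra and Il6ra are higher in all 4 of them, and the azacytidine libraries of Il18r1 and Il18rap lie below all others.

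The 3 neighbours on chromosome 1 gave different calls with each drug. Il18r1 was read at 2.22 and 3.16 CPM with azacytidine and 22.8 and 13.6 CPM with decitabine, against 9.15 and 12.3 CPM with DMSO. The azacytidine libraries were below and the decitabine libraries above DMSO, with a log2 fold change of -1.99 ± 0.36 with azacytidine (SE, adjusted p 0.00404) and 0.76 ± 0.34 with decitabine, which did not pass (adjusted p 0.158). Il18rap was read at 0.588 and 1.37 CPM with azacytidine, 6.83 and 2.68 CPM with decitabine, and 4.17 and 4.69 CPM with DMSO. It fell with azacytidine by 2.16 ± 0.55 on the log2 scale (SE, adjusted p 0.021), a call lost without azacytidine library 1 (0.153, range 0.00017 to 0.153). With decitabine its libraries lay on either side of DMSO, and the 95% interval was -1.02 to 1.22 (adjusted p 0.92). Il1rl1 was read at 1.83 and 2.92 CPM with azacytidine, 8.21 and 9.18 CPM with decitabine, and 1.81 and 2.29 CPM with DMSO. Its azacytidine libraries overlapped DMSO (95% interval -0.64 to 1.07), while with decitabine it rose by a log2 fold change of 2.08 ± 0.38 (SE, adjusted p 0.00519) and kept its call in the 12 other settings.

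**Figure D4:**
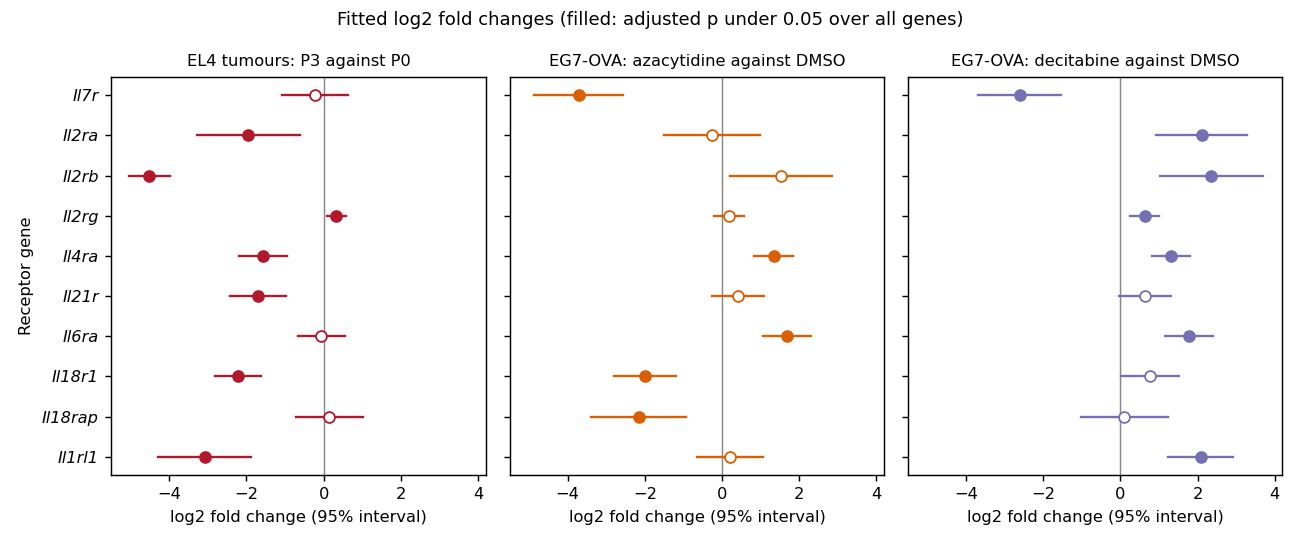
Fitted log2 fold change (points) with 95% interval (lines) of each receptor gene for P3 against P0 tumours, azacytidine against DMSO and decitabine against DMSO; filled points had an adjusted p under 0.05 over all genes tested and open points did not. Il2rb and Il4ra lie left of 0 in the tumours and right of 0 with each drug, with the azacytidine value of Il2rb open, and Il7r lies far left of 0 in both culture panels and near 0 in the tumours.

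The drugs were given at different doses, 1.5 µM azacytidine and 0.2 µM decitabine, so their direct contrast sets 1 dosed condition against another and not the compounds at a matched dose. None of the 10 genes passed in edgeR, where 0% of all genes did and 1218 had an unadjusted p under 0.05, among them 6 of the receptor genes. DESeq2, on the same counts, called 0.926% of all genes and 3 of the 10: Il18r1, Il1rl1 and Il18rap, the neighbours on chromosome 1. Il18r1 was lower with azacytidine by 2.75 ± 0.37 on the log2 scale (SE, n = 2 each), with an adjusted p of 0.0945 in edgeR, 8.88e-09 in DESeq2 and a range of 2.37e-10 to 0.943 over 12 settings. For Il1rl1 the log2 fold change of azacytidine over decitabine was -1.87 ± 0.38 (adjusted p 0.19 in edgeR and 0.00381 in DESeq2, range 0.00381 to 0.985). For Il18rap it was -2.26 ± 0.55 (adjusted p 0.269 in edgeR and 0.0327 in DESeq2, range 0.00105 to 1). All 3 genes had both azacytidine libraries below both decitabine libraries, but so did 6 of the 10 receptor genes in all, and the other 4 overlapped. The share of all genes with such a gap was not counted.

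Il2ra had a log2 fold change of -2.36 ± 0.54 in that contrast (adjusted p 0.244), and for Il7r it was -1.11 ± 0.49 (adjusted p 0.779); with no filter on low counts both passed (0.00135 and 0.000681). For Il7r the value became -0.06 without decitabine library 1. The remaining intervals were -2.10 to 0.43 for Il2rb, -0.83 to -0.06 for Il2rg and -0.88 to 0.46 for Il21r. Those of Il4ra (-0.47 to 0.50) and Il6ra (-0.68 to 0.50) were centred near 0, and an interval of this width does not show that the dosed conditions act alike.

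The marker lists were read in the cultures too. Over all genes tested 13.6% were higher and 6.7% lower with azacytidine, and 12.4% higher and 4.3% lower with decitabine. Of the macrophage list C1qa, C1qb, C1qc, Marco and Msr1 were at 0 in all 6 libraries, and the 14 genes summed to 23.5 to 27.4 CPM with azacytidine, 40.1 to 49.8 CPM with decitabine and 7.79 to 12.8 CPM with DMSO, with 5 of 9 tested genes higher with each drug. S100a8 was at 0 in all 6, and neutrophil sums were 0.588 to 0.835 CPM with azacytidine, 0.561 to 0.710 CPM with decitabine and 0.503 to 0.698 CPM with DMSO. NK and cytotoxic sums were 4.29 to 6.86 CPM with azacytidine, 7.32 to 13.6 CPM with decitabine and 15.0 to 24.3 CPM with DMSO. Most of that was Gzma, with means of 4.33, 8.87 and 18.0 CPM in the same order. Of 2 tested genes of the 9 in that list, Gzma was lower with azacytidine and neither passed with decitabine. The other, Eomes, had positive log2 fold changes that did not pass. Regulatory T-cell sums were 316.8 to 380.0 CPM with azacytidine, 491.7 to 665.3 CPM with decitabine and 645.1 to 737.8 CPM with DMSO, and of 6 genes 1 was lower with azacytidine, Ikzf2, at 332.8 ± 47.1 CPM against 678.9 ± 61.4 CPM with DMSO (SD, n = 2 each; adjusted p 0.00635), and none passed with decitabine. Dendritic cell sums were 13.0 to 14.3 CPM with azacytidine, 18.5 to 21.2 CPM with decitabine and 17.3 to 26.2 CPM with DMSO. B-cell sums were 383.5 to 384.9 CPM with azacytidine, 419.1 to 459.3 CPM with decitabine and 352.7 to 434.2 CPM with DMSO, with none of 7 tested genes past the threshold for either drug. Endothelial sums were 64.0 to 70.5 CPM with azacytidine, 78.9 to 87.1 CPM with decitabine and 60.3 to 80.8 CPM with DMSO. The part of these lists in the receptor results was not tested. The mast cell and basophil sum varied within groups, at 33.3 and 6.02 CPM with azacytidine, 252.3 and 21.9 CPM with decitabine, and 42.7 and 83.9 CPM with DMSO. Cpa3 made up most of it, at 251.5 CPM in decitabine library 1 and 21.3 CPM in decitabine library 2, while Il1rl1, a gene that mast cells also use, was 8.21 and 9.18 CPM in the same libraries. The T-cell list summed to 2209 to 2776 CPM with azacytidine, 2573 to 2676 CPM with decitabine and 1889 to 2001 CPM with DMSO, and the fibroblast list, with 3 of 6 tested genes higher with azacytidine and 4 with decitabine, to 155.0 to 208.2 CPM, 244.9 to 319.3 CPM and 120.2 to 163.7 CPM in the same order. Decitabine library 1 was also the higher of the pair for Il7r, Il2ra, Il2rb, Il2rg, Il21r, Il18r1 and Il18rap, and the lower for Il4ra, Il6ra and Il1rl1. The part of this difference between libraries in the receptor results was not tested beyond leaving that library out.

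Among the other interleukin receptor chains 19 of 25 were tested in the cultures, and 4 were higher and none lower with azacytidine, 3 higher and none lower with decitabine. For this list and those below, the shares over all genes were 13.6% higher and 6.7% lower with azacytidine. With decitabine they were 12.4% higher and 4.3% lower. Csf2rb, the shared beta chain for interleukin-3, interleukin-5 and GM-CSF, averaged 11.6 ± 5.5 CPM with azacytidine and 24.1 ± 12.2 CPM with decitabine, against 2.33 ± 0.16 CPM with DMSO (SD, n = 2 each). Crlf2, the partner of Il7r in the TSLP receptor, averaged 45.0 ± 12.1 CPM with azacytidine and 38.6 ± 8.7 CPM with decitabine, against 18.3 ± 2.9 CPM with DMSO. Its log2 fold changes were 1.29 with azacytidine and 1.08 with decitabine, where those of Il7r were -3.72 and -2.61. Leaving out azacytidine library 1 ended the azacytidine calls of both Csf2rb and Crlf2, and leaving out decitabine library 2 or DMSO library 2 ended the decitabine call of Crlf2.

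Of 7 tested ligands, Il13 rose with both drugs, at 2.99 ± 2.71 CPM with azacytidine and 8.34 ± 1.83 CPM with decitabine, against 0.424 ± 0.39 CPM with DMSO (SD, n = 2 each). Interleukin-13 acts through Il4ra paired with Il13ra1, and Il13ra1 was not tested for lack of reads. Il18, the ligand of Il18r1, rose with decitabine by a log2 fold change of 1.83, a call that did not hold without decitabine library 1 or DMSO library 1. The azacytidine call of Il13 did not hold without azacytidine library 1 or DMSO library 1.

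Of 19 signal transducers 6 were higher with azacytidine and 5 with decitabine, and none was lower with either. Myd88, the adaptor of the interleukin-1 receptor family, rose by log2 fold changes of 1.14 with azacytidine and 1.13 with decitabine, and the kinase gene Irak2 by 3.01 and 2.44. The azacytidine call of Myd88 was lost without azacytidine library 1, and the decitabine call of Irak2 without decitabine library 1 or DMSO library 1.

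Of 14 cytokine response genes 7 were higher and 2 lower with azacytidine, and 6 higher and 2 lower with decitabine. The feedback inhibitor gene Socs3 had 143 reads with azacytidine and 69 with decitabine but 1 read over both DMSO libraries, a ratio of 178 (exact 95% counting interval 31.5 to 7080) with azacytidine and 72.7 (12.6 to 2910) with decitabine; these intervals cover counting error only. Socs1 rose by log2 fold changes of 1.34 and 1.22 with the same drugs, and Pim1 fell with decitabine by 1.41 on the log2 scale. The Socs1 calls were lost without azacytidine library 1 and without decitabine library 2. Of 10 genes for regulators of receptor genes none was higher, and Gfi1, which encodes a repressor that acts on Il7r in mouse T cells, was lower with both drugs. It averaged 24.5 ± 7.7 CPM with azacytidine and 32.3 ± 10.2 CPM with decitabine, against 61.3 ± 6.0 CPM with DMSO (SD, n = 2 each). Its azacytidine call was lost without azacytidine library 2, and its decitabine call without decitabine library 2 or either DMSO library. Neither Adam10 nor Adam17 passed with either drug.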

How the data were processed

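The authors deposited a table of raw counts per gene for the EL4 tumours and a table per gene symbol for the EG7-OVA cells. For EG7-OVA, 145 values in 62 entries were not whole, none in the 10 genes, and these deposited values were handled like estimated counts and rounded. The submitters' processing notes name fastp, Trim Galore, STAR, featureCounts and mm10, without versions or roles. No isoforms are separated.

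The members and all gene lists were chosen with earlier results of these data known. Other genes were named as up to 3 of a list with the smallest p where at least 1 passed, and the text names part of them, plus Il2, Il4, Il7, Il21, Il13ra1, Adam10 and Adam17 by status, and defining cell type markers.

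Each table was fitted on its own in edgeR 4.0.16 (R 4.3.3) with TMM, filterByExpr, 1 mean per group and the two-sided quasi-likelihood test, the 6 EG7-OVA libraries together. Benjamini-Hochberg adjustment ran over all genes tested. SE is the log2 fold change over the root of F, and intervals are 95%. CPM uses TMM-scaled totals. The pipeline was tested on simulated data. Positions and exon lengths are from GENCODE vM21. Alternatives were median-ratio factors, DESeq2 1.42.0, a stricter low-count filter (100 reads in all, and 1 CPM throughout at least 1 group), no such filter, a replicate block, fits of just the 4 libraries at issue, and dropping each library. The protein motif planned was not analysed here. The NKYS libraries were not used here.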

Additional observations from a re-analysis of the deposited data

How the results depend on the processing

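Leaving out 1 library at a time gave 0 to 10840 genes past the threshold for P3 against P0 (7736 with all libraries), 1658 to 3818 for azacytidine against DMSO (3883), 1507 to 3217 for decitabine against DMSO (3198) and 0 to 3 for azacytidine against decitabine (0). Among the 10 receptor genes these fits called 0 to 8, 4 to 6, 4 to 6 and 0 to 1. A group left with 1 library was assumed to vary like the others. For azacytidine against decitabine, DESeq2 called 177 genes and 3 receptor genes, the fit with no filter 378 and 5, and the fit of only the 4 libraries 3 and 1. The cause was not tested.

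Values that changed sign came from genes that had not passed. In the tumours, leave-out values ran from -0.88 to 0.23 for Il7r, -0.47 to 0.27 for Il6ra and -0.20 to 0.63 for Il18rap. With azacytidine against DMSO they ran from -0.16 to 0.48 for Il1rl1, and from -0.050 to 2.23 for Il15. With decitabine against DMSO they ran from -0.72 to 0.62 for Il18rap. For azacytidine against decitabine they ran from -0.27 to 0.26 for Il4ra, -0.34 to 0.12 for Il6ra and -0.58 to 0.084 for Il21r. Over all members, 391 values kept direction and side of the threshold, 30 lost the call, 16 gained one and 13 changed sign.

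With the replicate block, 5490, 3609, 2954 and 0 genes and 6, 5, 7 and 0 members passed in the same order, Il4ra between the drugs was -0.0116, and the azacytidine call of Il13 and the P3 call of Il2rg were lost. Same-numbered libraries deviated with correlations of -0.04 (P3 and P0), 0.27 (azacytidine and decitabine), -0.26 (azacytidine and DMSO) and -0.19 (decitabine and DMSO), and titles and library names number the DMSO libraries differently, so the numbers were not taken to pair libraries. With 2 libraries a group and as few as 5 reads for Il1rl1 in a P3 library, small differences were not detectable at this depth.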

Other observations

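Libraries of 1 group differed in genes outside the comparisons. Cd4, the T-helper coreceptor gene, was read at 1.86 CPM in DMSO library 1 and 41.5 CPM in DMSO library 2, the same pair in which Il7r was 65.7 and 129.1 CPM and Il2rb 0.905 and 3.79 CPM. In the other cultures Cd4 stood at 17.5 and 5.60 CPM with azacytidine and 34.6 and 29.2 CPM with decitabine. In the tumours it was 575.9 and 663.6 CPM in P3 and 421.7 and 405.1 CPM in P0, in a table normalized separately from that of the cultures.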
